A study of Mus musculus with 40 samples.

Results

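Arachidonic acid is a fatty acid held in membrane phospholipids, and cytosolic phospholipase A2, encoded by Pla2g4a, cuts it free. Lipoxygenases such as those encoded by Alox12 and Alox15 add oxygen to it and make hydroxy fatty acids. The cyclooxygenases encoded by Ptgs1 and Ptgs2 turn it into prostaglandin H2, from which the synthase encoded by Ptges makes prostaglandin E2. Hpgd encodes the dehydrogenase that inactivates prostaglandins. The urothelium, the lining of the bladder, is known to release prostaglandin E2, and Ptgs1 is known as the steady and Ptgs2 as the inducible cyclooxygenase. These 7 genes of lipoxygenase and prostaglandin metabolism were described here, of 53465 genes in a table of RNA-seq counts. Each was found by the Ensembl identifier that the reference name table pairs with its symbol. The set was chosen by name with levels and fold changes of this same table in view, so the values of the 7 genes in all comparisons are a description and carry no p-values.

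The cells were mouse bladder urothelial cells grown as organoids, in 4 groups of 2 libraries of polyA RNA. Per the labels, these were Kmt2c/Kmt2d double knockout (labelled dKO) cells with MI-503, labelled dKO cells with DMSO, WT cells with MI-503 and WT cells with DMSO. Kmt2c and Kmt2d encode histone methyltransferases of enhancers, and MI-503 is an inhibitor that keeps menin from binding the methyltransferase KMT2A. MI-503 was given at 1 µM and the treatments lasted 4 days. All groups shared a medium with noggin, R-spondin, EGF, the ROCK inhibitor Y-27632 and the TGF-beta receptor inhibitor A83-01. The labels do not say which exons were deleted, how, or whether a genotype is 1 line or several, nor whether replicates were separate cultures. Every p-value therefore measures only the spread between these libraries, which may be technical. The other 32 samples of the series were not analysed here.

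Library totals ran from 58113705 to 68571176 counts. Kmt2c measured 53.8 ± 2.08 CPM in labelled dKO cells with DMSO and 111 ± 0.476 CPM in WT cells with DMSO (SD, n = 2 each), where CPM are counts scaled for depth by TMM. Kmt2d was not lower in the libraries labelled dKO (122 ± 15.7 CPM) than in WT (91.0 ± 6.26 CPM), so the RNA does not show the loss of both genes. The counts cover all exons, so a deletion of some exons need not lower them, and the genotype is called labelled dKO throughout. Of 12 urothelial markers, 11 passed the filter on low counts, and Krt5, a keratin of basal urothelium, was abundant in every library. With DMSO, Krt5 averaged 9579 CPM in labelled dKO and 3974 CPM in WT cells. In the same order, Krt14 averaged 4846 and 1934 CPM and Trp63 averaged 1005 and 456 CPM. With MI-503, again in that order, Krt5 averaged 10389.5 and 7469.6 CPM, Krt14 4324 and 1458 CPM and Trp63 565 and 235 CPM. In WT cells Krt5 was thus higher with MI-503 than with DMSO, while Krt14 and Trp63 were lower. Among genes of the luminal cells, Upk2 had at most 9 counts in any library, whereas Upk1b ran from 97.5 to 144 CPM. Upk1b averaged 101 and 140.5 CPM in labelled dKO cells with MI-503 and DMSO and 102 and 138 CPM in WT cells with MI-503 and DMSO. Krt20 averaged 6.66 and 10.8 CPM in labelled dKO cells with MI-503 and DMSO and 0.508 and 0.320 CPM in WT cells with MI-503 and DMSO. Upk3a, in the same order, averaged 2.5 and 2.09 CPM in labelled dKO cells and 1.83 and 0.229 CPM in WT cells. Upk1a went the other way between the genotypes, with 0.546 and 0.43 CPM in labelled dKO cells and 1.75 and 1.37 CPM in WT cells. The WT libraries with DMSO stood apart in another gene group: 12 chaperone genes of the endoplasmic reticulum, a list chosen with results known, took 3.53% and 3.80% of their counts, against 0.365% to 0.493% in the other 6 libraries. The part of that state in the comparisons with WT cells in DMSO was not tested.

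In the plot of levels by library, Alox15, Alox12, Ptgs1 and Ptges were highest in WT cells with MI-503 and lowest in labelled dKO cells with DMSO. Ptgs2 ran the other way, with its highest level in labelled dKO cells with DMSO and its lowest in WT cells with MI-503. Pla2g4a was higher in both WT groups than in both labelled dKO groups, and Hpgd was at or near 0 everywhere. Of the 7 genes, 6 passed the filter and Hpgd did not. Alox15 met the minimum count in every library but passed 1 CPM in WT cells with MI-503 alone. In bulk RNA, fewer cells of a type and less RNA per cell cannot be told apart.

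**Figure D1:**
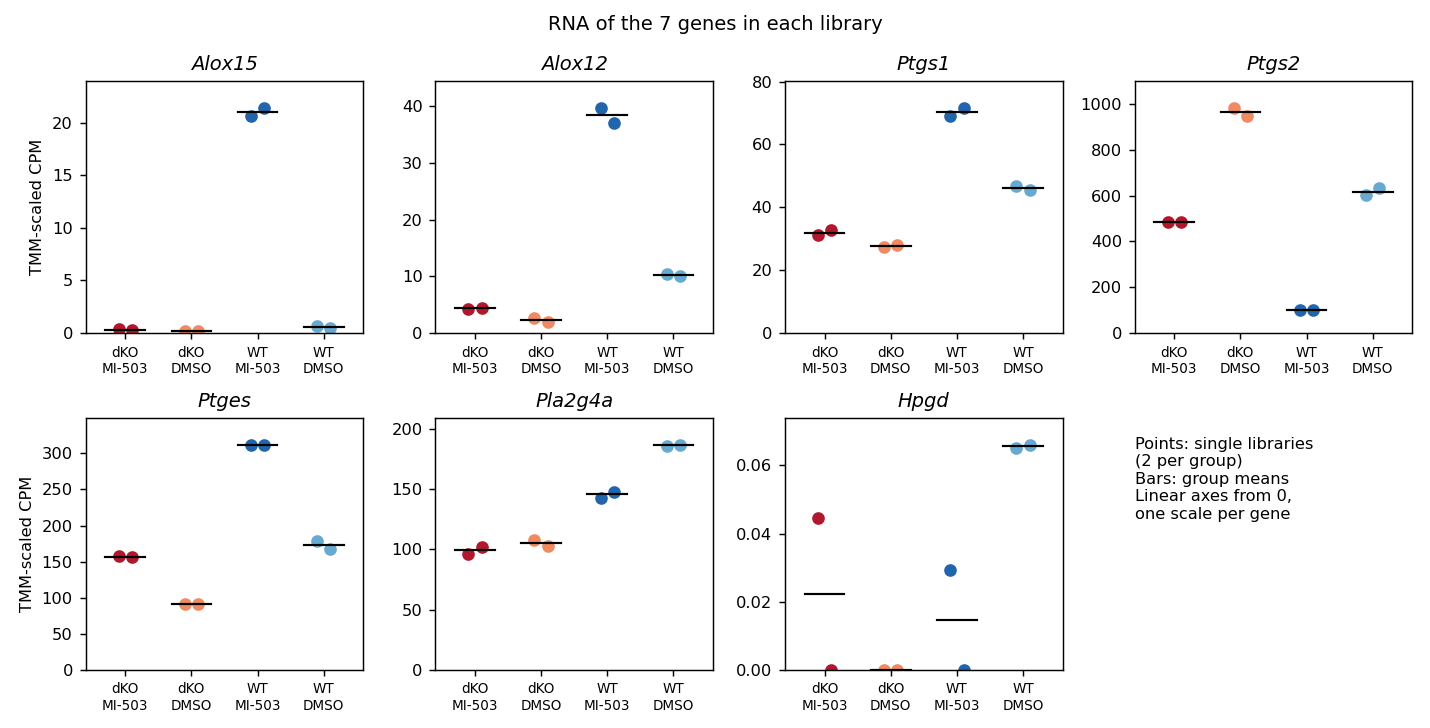
TMM-scaled CPM of the 7 genes, with 1 panel and 1 linear scale from 0 per gene. Points are the 2 libraries of a group and bars are group means. Ptgs2 peaks in labelled dKO cells with DMSO at a mean of 966 CPM, whereas Alox15, Alox12, Ptgs1 and Ptges peak in WT cells with MI-503.

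Pla2g4a (ENSMUSG00000056220, chromosome 1, 149829618 to 149961290 in GRCm38.p6) supplies the substrate of both branches. It measured 96.5 and 102 CPM in labelled dKO cells with MI-503 and 108 and 103 CPM in labelled dKO cells with DMSO. WT cells with MI-503 had 143 and 148 CPM, and WT cells with DMSO had 186 and 187 CPM. The groups of the 2 genotypes did not overlap, and the labelled dKO groups differed from each other by little more than their own spread. Pla2g4a was lower in labelled dKO than in WT cells with DMSO (log2 fold change -0.83, SE 0.048) and with MI-503 (-0.55, SE 0.049). With MI-503 it changed by -0.36 (SE 0.048) in WT cells, a value that was -0.19 when counts were scaled by library size only, and by -0.08 (SE 0.049) in labelled dKO cells.

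Alox12 (ENSMUSG00000000320, chromosome 11, 70241457 to 70255380), which encodes the platelet-type lipoxygenase, measured 4.29 and 4.44 CPM in labelled dKO cells with MI-503 and 2.65 and 2.02 CPM with DMSO. In WT cells it measured 39.7 and 37.1 CPM with MI-503 and 10.5 and 10.1 CPM with DMSO. Both WT groups thus lay above both labelled dKO groups, and within each genotype the MI-503 libraries lay above the DMSO libraries. Alox12 was 4.44-fold lower in labelled dKO than in WT cells with DMSO (log2 fold change -2.15, SE 0.11) and 8.80-fold lower with MI-503 (-3.14, SE 0.10). MI-503 went with a 1.87-fold higher level in labelled dKO cells (0.91, SE 0.12) and a 3.72-fold higher level in WT cells (1.89, SE 0.092). The MI-503 effect in labelled dKO cells minus that in WT cells, called the interaction, was -0.99 (SE 0.15).

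Alox15 (ENSMUSG00000018924, chromosome 11, 70344147 to 70390538), the mouse gene of the leukocyte-type lipoxygenase, had 26 and 15 counts in labelled dKO cells with MI-503 and 12 and 12 counts with DMSO. WT cells had 1407 and 1278 counts with MI-503, against 39 and 29 counts with DMSO. WT cells with MI-503 were far above the other 3 groups, none of which passed 0.635 CPM in any library. MI-503 went with a 37.5-fold higher level in WT cells (21.0 ± 0.553 CPM with MI-503 and 0.557 ± 0.110 CPM with DMSO, log2 fold change 5.23, SE 0.15). In labelled dKO cells the MI-503 and DMSO libraries did not overlap, but the difference was 0.85 (SE 0.34) and rested on few counts. Without replicate 1 of labelled dKO cells with MI-503 it was 0.47, and without replicate 2 it was 1.13. Alox15 was 3.17-fold lower in labelled dKO than in WT cells with DMSO (-1.66, SE 0.30) and 65.7-fold lower with MI-503 (-6.04, SE 0.16), with an interaction of -4.37 (SE 0.45). The span of Alox15 overlaps the pseudogene Gm12312, which had 68 counts in all, and that of Alox12 overlaps the RNA gene Gm40191. No source used here gives the strand setting of the counting, and reads of overlapping genes or close paralogs could be shared.

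The lipoxygenase genes differed unequally between the groups. Alox15 had 0.0900 and 0.0547 counts per Alox12 count in labelled dKO cells with MI-503 and 0.0686 and 0.0833 with DMSO. In WT cells it had 0.518 and 0.576 with MI-503, against 0.0602 and 0.0473 with DMSO. Gene length cancels when such a ratio is compared between libraries. The ratio was thus high in WT cells with MI-503, while the ranges of the labelled dKO groups overlapped each other and WT cells with DMSO overlapped labelled dKO cells with MI-503.

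Ptgs1 (ENSMUSG00000047250, chromosome 2, 36216742 to 36258593), the steady cyclooxygenase gene, measured 31.1 and 32.8 CPM in labelled dKO cells with MI-503 and 27.5 and 28 CPM with DMSO. WT cells had 69.2 and 71.6 CPM with MI-503 and 46.9 and 45.4 CPM with DMSO. The order of the 4 groups was that of Alox12 and no neighbours overlapped, but the span was narrower. Ptgs1 was lower in labelled dKO than in WT cells with DMSO (log2 fold change -0.73, SE 0.057) and with MI-503 (-1.14, SE 0.057). It was higher with MI-503 in labelled dKO cells (0.20, SE 0.058) and in WT cells (0.61, SE 0.056), with an interaction of -0.41 (SE 0.080).

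Ptgs2 (ENSMUSG00000032487, chromosome 1, 150100031 to 150108234), the inducible cyclooxygenase gene, measured 485 and 486 CPM in labelled dKO cells with MI-503 and 983 and 949 CPM with DMSO. In WT cells it measured 100.3 and 99.0 CPM with MI-503 and 603 and 633 CPM with DMSO. No neighbouring groups overlapped, and labelled dKO cells with MI-503 lay below both DMSO groups. Ptgs2 was 1.56-fold higher in labelled dKO than in WT cells with DMSO (log2 fold change 0.65, SE 0.045) and 4.87-fold higher with MI-503 (2.28, SE 0.048). MI-503 went with a 1.99-fold lower level in labelled dKO cells (-0.99, SE 0.045) and a 6.20-fold lower level in WT cells (-2.63, SE 0.048). The interaction was 1.64 (SE 0.064).

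The balance of the cyclooxygenase genes therefore differed widely between the groups. There were 15.6 and 14.8 Ptgs2 counts per Ptgs1 count in labelled dKO cells with MI-503 and 35.7 and 33.9 with DMSO. In WT cells there were 1.45 and 1.38 with MI-503 and 12.8 and 13.9 with DMSO. WT cells with MI-503 were thus the lowest by a wide margin. Labelled dKO cells with MI-503 (15.2 ± 0.547) were near WT cells with DMSO (13.4 ± 0.766), and these groups did not overlap.

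**Figure D2:**
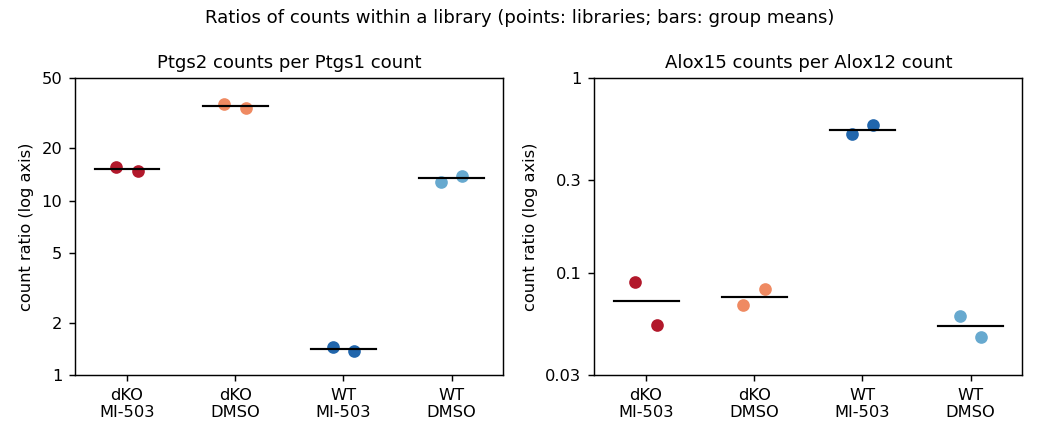
Counts of Ptgs2 per Ptgs1 count and of Alox15 per Alox12 count within each library, on log axes. Points are libraries and bars are group means. In WT cells with MI-503 the Ptgs2 ratio is lowest (mean 1.42) and the Alox15 ratio highest (mean 0.547).

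Ptges (ENSMUSG00000050737, chromosome 2, 30889471 to 30931020) encodes the inducible membrane-bound synthase of prostaglandin E2, which is known to be coupled to the product of Ptgs2. It measured 158 and 156 CPM in labelled dKO cells with MI-503 and 91.3 and 91.5 CPM with DMSO. WT cells had 312 and 311 CPM with MI-503 and 179 and 168 CPM with DMSO. Ptges therefore stood in the order of Ptgs1 and the lipoxygenase genes, and opposite to Ptgs2, in each of the 4 comparisons. It was lower in labelled dKO than in WT cells with DMSO (log2 fold change -0.92, SE 0.046) and with MI-503 (-0.99, SE 0.045). It was higher with MI-503 in labelled dKO cells (0.78, SE 0.046) and in WT cells (0.85, SE 0.045). The interaction was -0.07 (SE 0.064), and -0.23 with counts scaled by library size only. The span of Ptges overlaps the RNA gene Gm52550 and the pseudogene Gm13400, which had 19 counts in all.

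Hpgd (ENSMUSG00000031613, chromosome 8, 56294552 to 56321046) had 3 and 0 counts in labelled dKO cells with MI-503 and 0 and 0 counts with DMSO. WT cells had 2 and 0 counts with MI-503 and 4 and 4 counts with DMSO. No library passed 0.0661 CPM, and a count of 0 leaves room for a level of 3 counts, which is 0.0421 to 0.0501 CPM. These limits cover counting error only, and no difference of Hpgd was read at this depth, although both WT libraries with DMSO lay above the rest.

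**Figure D3:**
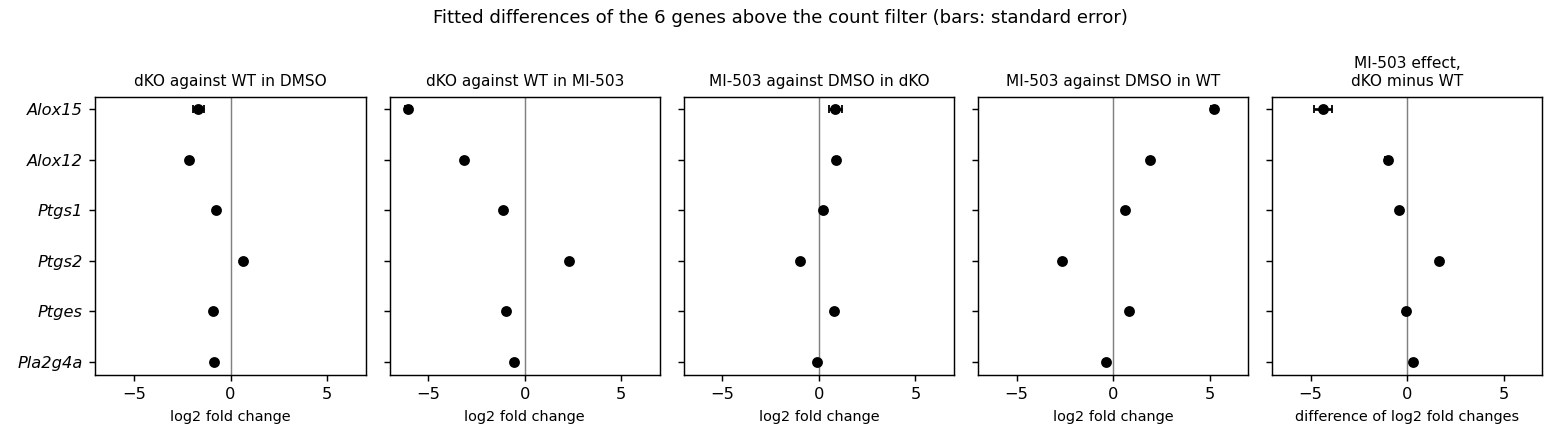
Fitted log2 fold changes of the 6 genes above the filter in the 4 comparisons, and the MI-503 effect in labelled dKO minus that in WT cells. Bars are standard errors, often smaller than the points. Ptgs2 lies on the opposite side of 0 from Alox15, Alox12, Ptgs1 and Ptges in every comparison, and the widest difference is that of Alox15 between the genotypes with MI-503 (-6.04).

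The share of genes past an adjusted p of 0.05 was high in this table. In labelled dKO against WT cells with DMSO, 65.4% of the 16921 genes tested passed (29.6% higher and 35.8% lower), and of the 6 member genes tested 1 was higher and 5 lower. With MI-503, 55.1% passed between the genotypes (26.6% higher and 28.5% lower), and again 1 member was higher and 5 lower. In MI-503 against DMSO in labelled dKO cells, 55.6% passed (29.1% higher and 26.5% lower), with 4 members higher, 1 lower and Pla2g4a not past the threshold. In WT cells 69% passed (35.2% higher and 33.7% lower), with 4 members higher and 2 lower. In the interaction 46.8% passed (24.8% above 0 and 22% below 0), with 2 members above 0, 3 below 0 and Ptges not past the threshold. Nothing is read from these counts, since the genes were chosen with the values known. The comparisons share libraries (the DMSO groups serve both a genotype and a treatment comparison), so they are not separate evidence of a direction.

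Promoter windows from RefSeq (GRCm38.p6, 250 bases before to 50 after an annotated start) were matched for 6 of the 7 genes, with 7 windows in all. Those of Ptgs2, Ptges and Alox12 are shown because Ptgs2 stood opposite to the other 2 genes in every comparison. Capitals mark matches, on either strand, to any of 8 motifs: TATA box TATAAA, E-box CACGTG, cAMP response element TGACGTCA, AP-1 TGANTCA, NF-kB (GGGA, 4 bases of any kind, CC), STAT6 (TTC, 4 bases of any kind, GAA), C/EBP TTGCNNAA and GC box GGGCGG.
Ptgs2, chr1:150099781-150100080, plus strand: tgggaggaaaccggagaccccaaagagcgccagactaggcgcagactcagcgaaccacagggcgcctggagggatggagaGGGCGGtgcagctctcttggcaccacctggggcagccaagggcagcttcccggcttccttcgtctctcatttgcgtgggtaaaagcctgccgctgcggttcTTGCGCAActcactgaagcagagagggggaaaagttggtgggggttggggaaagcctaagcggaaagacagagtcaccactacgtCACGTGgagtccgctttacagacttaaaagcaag
Ptges, chr2:30903248-30903547, minus strand: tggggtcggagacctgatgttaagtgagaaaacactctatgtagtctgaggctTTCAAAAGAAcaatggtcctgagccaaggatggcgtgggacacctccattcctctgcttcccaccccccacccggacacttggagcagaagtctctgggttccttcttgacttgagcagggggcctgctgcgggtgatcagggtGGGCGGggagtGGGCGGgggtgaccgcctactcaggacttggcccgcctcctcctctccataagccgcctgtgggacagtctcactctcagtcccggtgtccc
Alox12, chr11:70255321-70255620, minus strand: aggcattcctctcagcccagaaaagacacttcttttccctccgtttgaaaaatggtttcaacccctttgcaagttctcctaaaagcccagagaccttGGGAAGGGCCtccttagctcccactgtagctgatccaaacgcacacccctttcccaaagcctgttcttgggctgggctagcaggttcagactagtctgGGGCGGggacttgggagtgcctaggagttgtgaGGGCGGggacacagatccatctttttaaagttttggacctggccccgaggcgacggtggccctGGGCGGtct

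The Ptgs2 window held a C/EBP match at -69 to -62 and an E-box at 17 to 22 from the start, motifs found in 10.8% and 7.15% of 32851 promoter windows. Neither was in the other windows of the 7 genes. The GC box, found in 35.7% of windows, had 1 match in Ptgs2, 2 in Ptges, 3 in Alox12 and 1 in Hpgd, so it is in genes that stood opposite to each other. The TATA box letters (13.6% of windows) were matched in Pla2g4a at -200 to -195, on the strand opposite to the gene, and in Hpgd at 5 to 10. The further Pla2g4a window held 0 matches to any motif. The Ptges window had a STAT6 match (6.95% of windows) and the Alox12 window an NF-kB match (20.7% of windows). No match to the full AP-1 or cAMP response element letters was found in the 7 windows (7.81% and 1.79% of all windows). Shorter or variant forms of these motifs were not searched, so such forms may be present. A match is a description of letters, and the motif letters of NF-kB and the GC box do not overlap in Alox12.

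Alox12 and Alox15 lie on the same stretch of chromosome 11 with Alox12e, a further lipoxygenase gene of mouse skin. Alox12e had 1 and 0 counts in labelled dKO cells with MI-503 and 0 and 0 counts with DMSO. WT cells had 27 and 18 counts with MI-503 and 1 and 1 counts with DMSO. The ratio of WT MI-503 to WT DMSO counts was 21.4 (95% counting interval 5.59 to 182), and the ratio of WT to labelled dKO counts with MI-503 was 45.3 (7.73 to 1828). Within 100 kb on either side of the pair, a window chosen after values were seen, 13 other genes passed the filter, Alox12e among them. With MI-503 against DMSO in WT cells, 3 passed as higher, 2 as lower and 8 not at all, against 35.2% of all genes risen and 33.7% fallen, with a median of 0.21. In labelled dKO against WT cells with MI-503, 8 rose, 2 fell and 3 did not pass, against 26.6% risen and 28.5% fallen, with a median of 0.46. Slc16a11, a transporter gene of the same stretch, was higher in labelled dKO than in WT cells with MI-503 (log2 fold change 1.86, edgeR adjusted p = 3.02e-08), while Pelp1, the nearest protein-coding neighbour of Alox15, changed by 0.46 (adjusted p = 0.000215). Cxcl16, a chemokine gene, and Alox12e were the 2 that fell. Alox12e passed the filter only through WT cells with MI-503, where it was high, so its direction in both comparisons with that group was set by the filter.

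**Figure D4:**
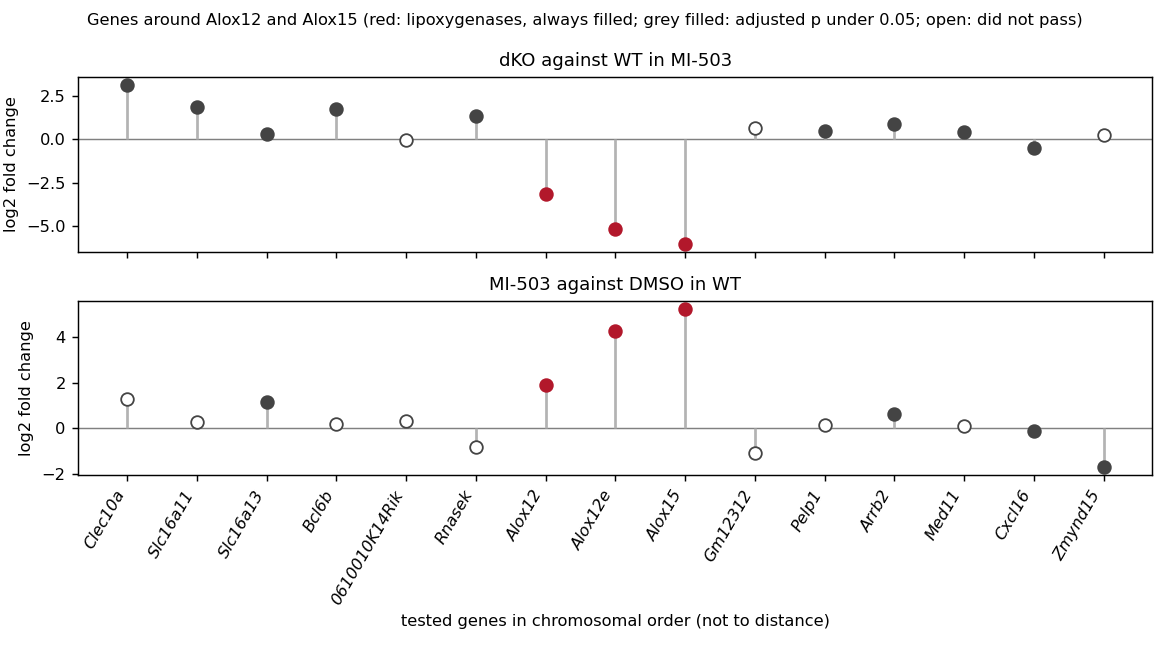
Log2 fold changes of the tested genes around Alox12 and Alox15, in chromosomal order and not to distance, for labelled dKO against WT cells with MI-503 and for MI-503 against DMSO in WT cells. Red points are the 3 lipoxygenase genes, grey filled points passed an adjusted p of 0.05 and open points did not. Alox12, Alox12e and Alox15 stand below 0 in the upper panel and above 0 in the lower panel. The side of Alox12e was set by the filter in both panels, and Alox12 and Alox15 were chosen with their values known.

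Other genes of the pathway were taken from a list of 55, of which 36 passed the filter. Ptger2, Ptgir and Ptgdr, 3 receptor genes of prostanoids, had 0 counts in every library. With MI-503 against DMSO in labelled dKO cells, 16 rose, 6 fell and 14 did not pass (edgeR, adjusted p over all genes tested). That is 61.1% called, against 55.6% of all genes. The median log2 fold change was 0.40, or 0.26 with genes of a group at 0 counts set to their bound, against 0.03 over all genes. In WT cells, 21 rose, 5 fell and 10 did not pass, 72.2% against 69% of all genes, with a median of 0.60 against 0.03. Pla2g2e, Ephx2 and Alox12e, among those risen, passed the filter only through WT cells with MI-503, where they were high. Their direction in this comparison was therefore set by the filter.

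In labelled dKO against WT cells with DMSO, 9 rose, 14 fell and 13 did not pass, 63.9% against 65.4% of all genes, with a median of -0.14 (-0.13 with bounds) against -0.05. Scaling by library size alone put the median of all genes at 0.18, and the split turned to 14 risen and 9 fallen. It turned as well without the filter (12 and 11), with the stricter filter (10 and 8) and with only the groups compared (10 and 7). With MI-503, 6 rose, 16 fell and 14 did not pass, 61.1% against 55.1%, with a median of -0.05 against 0.01. Ptger3, among those risen, and Cysltr1, Pla2g2e, Ephx2 and Alox12e, among those fallen, had directions set by the filter. The same holds for Ptger3 and Cysltr1 with DMSO. In the interaction, 8 were above 0 and 9 below 0 past the test, 47.2% against 46.8%, and without WT MI-503 replicate 1 the 8 became 5.

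**Figure D5:**
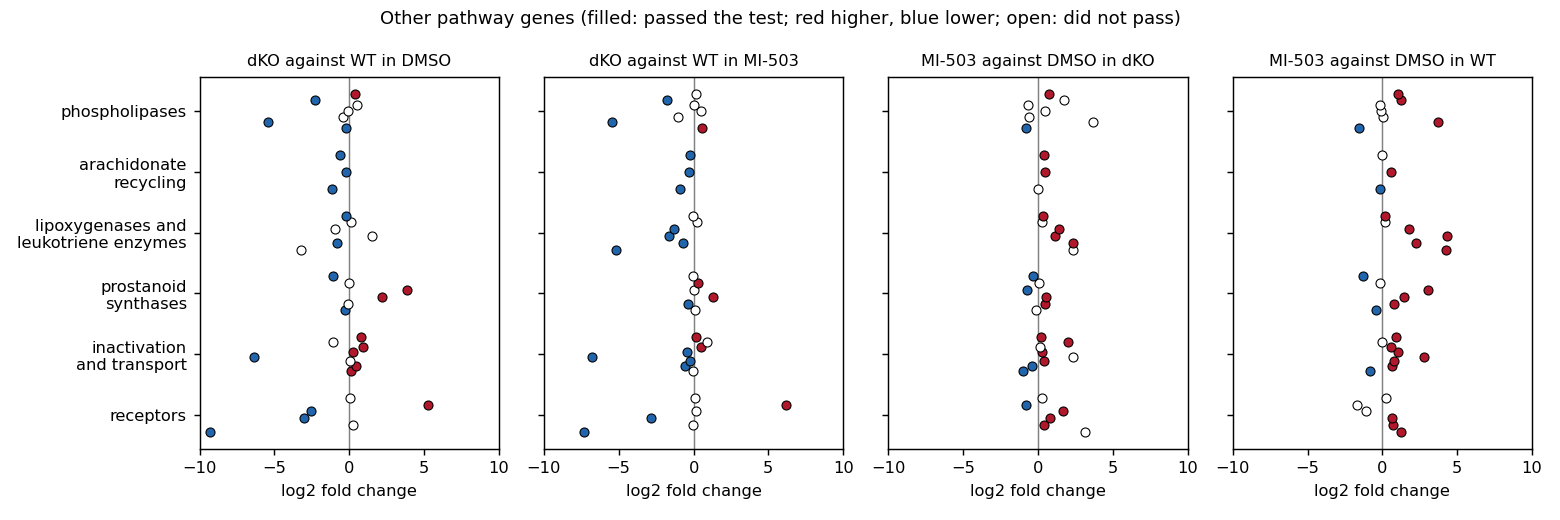
Log2 fold changes of the 36 other pathway genes tested, by role, in the 4 comparisons. Filled points passed an adjusted p of 0.05 (red higher, blue lower) and open points did not. The 6 lipoxygenase and leukotriene genes lie at or above 0 with MI-503 in both genotypes. Past the test as higher were 4 of them in labelled dKO cells and 5 in WT cells. The shares over all genes were 29.1% and 35.2%. Alox12e, among the 5, passed the filter only through WT cells with MI-503, so its rise there was set by the filter. In labelled dKO cells Alox12e rested on few counts and did not pass.

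Among phospholipases, which release fatty acids from phospholipids, 7 of 14 genes were tested. Pla2g6, a calcium-independent phospholipase gene, rose with MI-503 in labelled dKO cells (43.8 ± 3.21 CPM with MI-503 and 25.8 ± 2.52 CPM with DMSO, log2 fold change 0.76, edgeR adjusted p = 3.18e-06). It rose as well in WT cells (39.5 ± 1.85 CPM with MI-503 and 19.5 ± 1.69 CPM with DMSO, 1.02, adjusted p = 1.03e-07). The interaction of Pla2g6 was -0.26 and did not pass (adjusted p = 0.0956). Pla2g12a, a secreted phospholipase gene, fell with MI-503 in labelled dKO cells (-0.80, adjusted p = 3.23e-07) and in WT cells (-1.59, adjusted p = 1.59e-10). In labelled dKO against WT cells it was lower with DMSO (-0.24, adjusted p = 0.00623) and higher with MI-503 (0.55, adjusted p = 2.23e-05). Of the 3 genes that return arachidonate to phospholipids, Acsl4, Lpcat3 and Mboat7, all 3 passed in the main fit as lower in labelled dKO than in WT cells with either treatment. Of all genes, 35.8% were lower with DMSO and 28.5% with MI-503. Lpcat3 differed by -0.19 with DMSO (edgeR adjusted p = 0.00931), a value that turned to 0.04 (adjusted p = 0.584) with library size only. It also did not pass with DESeq2 (-0.15, adjusted p = 0.0567) or, in edgeR, without the filter (-0.1, adjusted p = 0.331). The same held with the stricter filter (-0.11, adjusted p = 0.0873) and with only the groups compared (-0.12, adjusted p = 0.17). Without WT DMSO replicate 1 the value was -0.17, and without labelled dKO DMSO replicate 2 it was -0.16. Mboat7 differed by -0.21 with MI-503 (edgeR adjusted p = 0.00443), by -0.14 with library size only and by -0.19 without WT MI-503 replicate 2. Acsl4, which prefers arachidonate as its substrate, measured 167 ± 4.95 CPM in labelled dKO cells and 362 ± 11.8 CPM in WT cells with DMSO (-1.12, adjusted p = 1.04e-10). With MI-503 it changed by -0.90 (adjusted p = 1.42e-09).

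Of the 6 other lipoxygenase and leukotriene genes tested, 4 rose with MI-503 in labelled dKO cells and 5 in WT cells, and 0 fell in either. That is 66.7% and 83.3% called, against 55.6% and 69% of all genes, and Alox12e, 1 of the 5, passed the filter only through WT cells with MI-503. Alox5, which encodes the first enzyme of leukotriene synthesis, measured 1.92 ± 0.406 CPM with MI-503 and 0.390 ± 0.135 CPM with DMSO in labelled dKO cells (log2 fold change 2.31, adjusted p = 3.34e-06). In WT cells it measured 3.21 ± 0.0503 CPM with MI-503 and 0.672 ± 0.0622 CPM with DMSO (2.25, adjusted p = 6.24e-07). The interaction of Alox5 was 0.06 and did not pass. Alox5ap, which encodes the protein that presents arachidonate to the Alox5 product, had 21 and 27 counts with MI-503 and 13 and 10 with DMSO in labelled dKO cells, against 69 and 81 counts with MI-503 and 6 and 1 with DMSO in WT cells. Its interaction was -3.17 (adjusted p = 0.00327) and rests on the few counts of the DMSO groups. In labelled dKO against WT cells with MI-503, Alox5, Alox5ap, Alox8 and Alox12e were lower and 0 were higher, where 28.5% of all genes were lower, and the direction of Alox12e was set by the filter.

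Of the 6 other prostanoid synthase genes tested, Hpgds, the synthase gene of prostaglandin D2 in blood cells, moved in opposite directions in the genotypes. Hpgds measured 6.38 ± 0.200 CPM with MI-503 and 10.8 ± 0.731 CPM with DMSO in labelled dKO cells, against 6.16 ± 0.0515 CPM and 0.732 ± 0.298 CPM in WT cells. With MI-503 it fell in labelled dKO cells (log2 fold change -0.76, adjusted p = 0.000145) and rose in WT cells (3.07, adjusted p = 2.20e-09). It also rose in labelled dKO against WT cells with DMSO (3.88, adjusted p = 1.95e-10), with an interaction of -3.83 (adjusted p = 1.93e-08). WT cells with DMSO, the group with the high share of chaperone counts, were thus the low group. Ptges3, which encodes the cytosolic synthase and chaperone partner p23, was high in that same group. Ptges3 measured 252 ± 4.53 CPM with MI-503 and 312 ± 22.6 CPM with DMSO in labelled dKO cells, against 264 ± 12.5 CPM and 659 ± 49.8 CPM in WT cells (WT difference -1.32, adjusted p = 2.94e-10), with an interaction of 1.01 (adjusted p = 7.57e-07). Fam213b, the gene of a prostamide and prostaglandin F synthase, was higher in labelled dKO than in WT cells with DMSO (2.17, adjusted p = 4.91e-07) and with MI-503 (1.30, adjusted p = 1.82e-05). The part of the chaperone state in these differences was not tested.

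Among 8 genes of inactivation and transport, 4 rose and 2 fell with MI-503 in labelled dKO cells, where 29.1% of all genes rose and 26.5% fell. In WT cells 6 rose and 1 fell, against 35.2% and 33.7%. Ephx2, among the 6, passed the filter only through WT cells with MI-503, so its rise was set by the filter. In the interaction 1 passed above 0 and 5 below 0, against 24.8% and 22%. Abcc4, which encodes an exporter of prostaglandins, fell with MI-503 in labelled dKO cells (180.4 ± 4.85 CPM with MI-503 and 354 ± 5.31 CPM with DMSO, log2 fold change -0.97, adjusted p = 6.80e-10). It fell also in WT cells (184 ± 4.31 CPM with MI-503 and 323 ± 1.88 CPM with DMSO, -0.81, adjusted p = 1.08e-09). The 2 groups with MI-503 thus had close levels. Cyp4f13, of a family that hydroxylates leukotrienes and other fatty acids, was lower with MI-503 in labelled dKO cells (12.2 ± 1.18 CPM with MI-503 and 16.2 ± 0.455 CPM with DMSO) and higher in WT cells (17.8 ± 0.237 CPM and 11.7 ± 0.207 CPM). Both passed the test (-0.41, adjusted p = 0.00072, and 0.61, adjusted p = 1.29e-05). Its interaction was -1.01 (adjusted p = 7.95e-06).

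Of 13 receptor genes, 6 were tested. In labelled dKO against WT cells with DMSO 1 rose, 3 fell and 2 did not pass, against 29.6% of all genes risen and 35.8% fallen. Ptger3, which encodes the EP3 receptor of prostaglandin E2, had 115 and 120 counts in labelled dKO cells with MI-503 and 207 and 232 counts with DMSO. WT cells had 3 and 0 counts with MI-503 and 6 and 4 counts with DMSO. It differed by a log2 fold change of 5.25 in labelled dKO against WT cells with DMSO. With MI-503 the ratio of counts was 77.8 (95% counting interval 26.3 to 380.1). Ptger3 passed the filter only through the labelled dKO groups, where it was high. Its direction between the genotypes was therefore set by the filter. Ltb4r2, a receptor gene for leukotriene B4 and a hydroxy fatty acid of the cyclooxygenase branch, went the other way. It fell in labelled dKO against WT cells with DMSO (1.35 ± 0.0692 CPM and 10.8 ± 0.0490 CPM, -2.99, adjusted p = 3.61e-10) and with MI-503 (2.34 ± 0.409 CPM and 16.5 ± 1.98 CPM, -2.82, adjusted p = 3.50e-10). Cysltr1, a receptor gene of the cysteinyl leukotrienes, had 1 and 1 counts in labelled dKO cells with MI-503 and 0 and 0 with DMSO. WT cells had 199 and 167 counts with MI-503 and 92 and 57 with DMSO. With the labelled dKO group set to a floor of 3 counts, it was at least 55.9-fold lower there with DMSO. Cysltr1 passed the filter only through the WT groups, so its direction between the genotypes was set by the filter as well. Ptger1, the gene of the EP1 receptor, had 24 and 9 counts in labelled dKO cells with MI-503 and 7 and 4 with DMSO, against 21 and 8 counts in WT cells with MI-503 and 35 and 24 with DMSO. It fell in labelled dKO against WT cells with DMSO (-2.56, adjusted p = 0.00152), and its interaction was 2.74 (adjusted p = 0.0127). Ptger4, the gene of the EP4 receptor, passed the test in none of the 5 comparisons (edgeR).

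Markers of other cells were measured beside these genes. Of 13 immune markers, 6 were at 0 in every library, Adgre1, Lyz2 and the eosinophil gene Epx among them, and 10 had at most 5 counts in any library. Cd68, a lysosomal glycoprotein used as a macrophage marker, was the 1 that passed the filter. The summed immune level ran from 61.2 to 69.9 CPM in labelled dKO cells with MI-503 and was 13.2 CPM with DMSO in both libraries. In WT cells it ran from 161 to 166 CPM with MI-503 and from 16.5 to 18.7 CPM with DMSO. Cd68 and Alox15 were thus both highest in WT cells with MI-503. Without Cd68 the sum was at most 0.380 CPM in any library.

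Of 4 platelet markers, Ppbp, which encodes a chemokine precursor, made up nearly all of the sum. The sum ran from 472 to 498 CPM in labelled dKO cells with MI-503 and from 272 to 286 CPM with DMSO. In WT cells it ran from 2109 to 2172 CPM with MI-503 and from 951 to 955 CPM with DMSO. Its groups stood in the order of Alox12 for WT with MI-503, WT with DMSO, labelled dKO with MI-503 and labelled dKO with DMSO. Itga2b, the integrin gene of platelets, had 91 and 91 counts in labelled dKO cells with MI-503 and 44 and 59 with DMSO, against 152 and 175 counts in WT cells with MI-503 and 47 and 53 with DMSO, so it too was highest in the group where Alox12 was highest. The rest of the order differed, as Itga2b averaged 1.41 CPM in labelled dKO cells with MI-503 and 0.821 CPM in WT cells with DMSO. Pf4 had at most 22 counts in any library, with 16 and 22 in WT cells with MI-503. Gp1bb went the other way, with 0 and 0 counts in WT cells with MI-503 and 2 and 7 with DMSO. In labelled dKO cells Gp1bb had 0 and 1 counts with MI-503 and 1 and 1 with DMSO. Of 5 smooth muscle markers, Acta2 moved most, and the sum ran from 7.60 to 7.63 CPM in labelled dKO cells with MI-503 and 1.25 to 1.43 CPM with DMSO. In WT cells the sum ran from 40.3 to 42.8 CPM with MI-503 and 3.16 to 4.17 CPM with DMSO. Acta2 made up most of this sum, which without it was at most 0.775 CPM in any library. Of 6 fibroblast markers, Col1a2, Dcn and Lum were at 0 in every library, and Pdgfra made up most of the sum. The fibroblast sum ran from 7.70 to 8.49 CPM in labelled dKO cells with MI-503 and from 3.55 to 4.11 CPM with DMSO, against 1.33 to 1.57 CPM in WT cells with MI-503 and 1.35 to 1.57 CPM with DMSO. Col1a1 averaged 0.262 and 0.108 CPM in labelled dKO cells with MI-503 and DMSO and 0.0689 and 0.0163 CPM in WT cells with MI-503 and DMSO. Pdgfrb was instead highest in WT cells with DMSO, at 24 and 20 counts, against 2 and 2 in WT cells with MI-503. Labelled dKO cells had 0 and 0 Pdgfrb counts with MI-503 and 2 and 1 with DMSO. The 4 endothelial markers summed to at most 0.195 CPM. The part of these markers, and of the urothelial markers, in the levels of the member genes was not tested.

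The genes most like each member were sought among 10113 others with a mean of at least 5 CPM, by the root mean square difference of centred log2 CPM over the 8 libraries. For Alox15 they were Tgm2 (0.58), Lgals1 (0.85) and Sigirr (0.85), and Tgm2, a transglutaminase gene, averaged 1.33 CPM in labelled dKO cells with MI-503, 0.630 with DMSO, 66.9 in WT cells with MI-503 and 4.58 with DMSO. For Alox12 they were Cgnl1 (0.20), Vamp5 (0.22) and Dagla (0.23), which encodes a lipase that makes an endocannabinoid from arachidonate-containing lipids. For Ptgs2 they were Dixdc1 (0.13), Elovl4 (0.19), which encodes an elongase of very long fatty acids, and Slc24a3 (0.23). For Ptgs1 the nearest gene was Fnip2 (0.03), for Ptges Anxa4 (0.05) and for Pla2g4a Cdc42 (0.05). The 8 libraries form 4 groups of 2, so these distances mostly compare 4 group means. Alox15 had few counts in 3 groups. In WT cells it averaged 21.0 CPM with MI-503 and 0.557 CPM with DMSO, against 48.2 and 5.09 CPM for Lgals1. The cause of its larger distances was not tested.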

How the data were processed

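Polyadenylated RNA of 8 libraries was sequenced, per the labels' protocols. The authors deposited raw counts per Ensembl gene. The submitters' processing notes name STAR and the build GRCm38 among the tools and builds of the series, while no source used here names the counting program, strand setting or annotation release. Of 53465 identifiers, 53274 had a symbol, and 1 row without an identifier or number was left out. Positions are those of RefSeq genes of GRCm38.p6, matched by symbol.

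The fit of the deposited counts was made with edgeR 4.0.16 (R 4.3.3). filterByExpr (minimum count 10, minimum total 15) kept 16921 genes, and TMM factors spanned 0.892 to 1.06, lowest in WT cells with DMSO. The quasi-likelihood model had a mean for each group and 4 residual degrees of freedom, and gave fold changes (prior count 0.125) and two-sided F tests, adjusted by Benjamini-Hochberg over all genes tested, at 0.05. The standard error (SE) was taken as the size of the log2 fold change divided by the root of F. The steps were checked on simulated counts with few changed genes, as many raised as lowered, and the same dispersion for every gene. That check cannot judge the scaling in a table where so many genes pass. With 2 libraries against 2, the smallest exact permutation p is 0.33.

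The members and lists were chosen with earlier results of these data known. Of the other pathway genes, the rule named the 3 largest changes per direction and comparison among genes past the threshold with at least 1 CPM and no overlap of groups. Alox12e, Cxcl16, Slc16a11, Pelp1, Alox5ap, Ptger1, Ptger4, Ptger2, Ptgir, Ptgdr, Lpcat3, Pla2g2e, Ephx2 and the motifs were chosen after values were seen. The alternatives tried were DESeq2 1.42.0, RLE factors, scaling by library size, fits without the filter or with a stricter one, fits of the compared groups alone, the replicate number as a block, and leaving out 1 library at a time.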

Additional observations from a re-analysis of the deposited data

Results flagged for a closer look

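Of the 13 named pathway genes outside the members, 7 had an MI-503 effect that differed between the genotypes in the edgeR interaction term, adjusted over all genes tested, where 46.8% passed. The naming rule took 6 of the 7 for the size of this term, all but Acsl4, so their number is a result of that choice. The values are the effect in labelled dKO cells minus that in WT cells, on the log2 scale. Hpgds had -3.83 (adjusted p = 1.93e-08), Cyp4f13 had -1.01 (adjusted p = 7.95e-06) and Fam213b had -0.87 (adjusted p = 0.0186), the last of which did not pass without WT MI-503 replicate 2 (-0.60, adjusted p = 0.108) or WT DMSO replicate 1 (-0.81, adjusted p = 0.0655). Ptges3 had 1.01 (adjusted p = 7.57e-07), Pla2g12a had 0.79 (adjusted p = 1.98e-05), Mboat7 had 0.40 (adjusted p = 0.000674) and Acsl4 had 0.22 (adjusted p = 0.0116). Hpgds and Cyp4f13 were lower with MI-503 in labelled dKO cells and higher in WT cells.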

How the results depend on the processing

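The fold changes of the 6 member genes kept their sign in every comparison under all alternatives run, and 59 of 444 moved by more than their standard error, 47 of them with a setting other than a left-out library. Library size only gave -0.19 for Pla2g4a with MI-503 in WT cells and 0.12 for its interaction (0.28 with TMM). For the other pathway genes in labelled dKO against WT cells with DMSO, library size only gave 14 risen and 9 fallen, no filter 12 and 11, the stricter filter 10 and 8, and only the groups compared 10 and 7, so the split turned under these 4 settings. In the interaction, the stricter filter gave 4 above 0. Fewer genes are tested under the stricter filter, and otherwise the cause was not tested. Over the fits that left out 1 library, the counts of risen genes ran from 8 to 11 in that genotype comparison, 4 to 7 with MI-503, 13 to 15 and 19 to 23 with MI-503 in labelled dKO and WT cells, and 5 to 7 in the interaction, the 5 without WT MI-503 replicate 1. Those fallen ran from 11 to 14, 14 to 17, 6 to 6, 5 to 7 and 7 to 10. The Fam213b interaction did not pass without WT MI-503 replicate 2 (-0.60, adjusted p = 0.108) or WT DMSO replicate 1 (-0.81, adjusted p = 0.0655). Over all genes, library size only moved the share of calls that were higher to 61.7% from 45.3% between genotypes with DMSO and to 37.2% from 52.9% in the interaction. Libraries share only a replicate number: the correlation of replicate differences between groups ran from -0.089 to 0.059, and the replicate block gave 9 risen and 15 fallen other pathway genes between genotypes with DMSO, and 21 and 6 with MI-503 in WT cells. Depth limits Hpgd, and Alox15 outside WT cells with MI-503.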
